A study of Mus musculus with 16 samples.

Results

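Pou5f1 encodes Oct4, the POU-family transcription factor that the retroviral reprogramming cocktails of this series supply or replace, and its own locus was examined here as a target of those cocktails. Its members were all ChIP-seq summits, the single base pairs at which the peak caller placed the maximum of a peak, within 50 kb of the annotated Pou5f1 start (mm10, chr17:35506018-35510772 for the gene, plus strand, 5 exons). Of 227116 summits in 13 libraries, 37 met this rule, and they fell into 17 elements when summits within 100 bp of the next were joined. At least 1 summit was found in 12 of 13 libraries. Across 21938 protein-coding genes, 0.337% had a summit within 50 kb of their start in at least 12 libraries. The nearest summits outside the window were at -182111 bp (score 8.45) and +63329 bp (score 5.27), and the outermost ones inside it were at -5170 and +43859 bp.

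All cells were OG2 mouse embryonic fibroblasts, which carry a GFP reporter under Pou5f1 regulatory sequence, and all were transduced with retroviral Sox2 and Klf4 (SK) plus 1 POU factor and kept in iCD1 medium. The POU factor was wild-type Oct4, Oct4defSox2 (an engineered Oct4 with impaired Sox2 dimerization), Oct4 S151M, Oct6 or Oct6 M151S. The Oct4 antibody was used in Oct4-SK cells at days 1, 5 and 7, in Oct4defSox2-SK cells at days 1 and 5 and in Oct4 S151M-SK cells at day 1. The Oct6 antibody was used in Oct6 M151S-SK cells, at day 1 by the sample title and at day 2 by another label. The Sox2 antibody was used at days 1 and 5 in Oct4-SK, Oct4defSox2-SK and Oct6-SK cells. Each group is 1 library, so no difference between groups could be tested and every statement below describes these libraries. The score is the -log10 p of the peak caller, which depends on sequencing depth, and it was ranked only within its library. Lists ran from 1038 summits (Oct4defSox2 at day 5) to 101170 (Oct4 S151M), all with scores of 4.00 or more except for Oct6 M151S, whose list went down to 2.30. The absence of a summit means that none passed the threshold of that list. The reads under a summit at the locus cannot be told apart from reads of the GFP reporter where both hold the same sequence, nor, in exons, from reads of a retroviral Oct4 cDNA.

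Pou5f1 is silent in fibroblasts and its reactivation is a hallmark of induced pluripotency. In embryonic stem cells its transcription depends on a distal enhancer, where Oct4 and Sox2 bind side by side on a composite SoxOct motif (a Sox site followed by an octamer-like site), whereas the proximal enhancer is used mainly in the epiblast. Oct4 thereby acts on its own gene. Oct6, encoded by Pou3f1, is a POU factor of neural and epithelial lineages that prefers to pair with itself on MORE palindromes.

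The sequence around the median summit is shown for the recurrent upstream element, for exon 1 and for the Tcf19 intron, since these are the elements bound in 3 or more libraries. Sequences are from the plus strand of GRCm38, and capitals mark a SoxOct match in the first line and matches to the Sox core ACAANG in the last one.
Upstream element, chr17:35503944-35504144: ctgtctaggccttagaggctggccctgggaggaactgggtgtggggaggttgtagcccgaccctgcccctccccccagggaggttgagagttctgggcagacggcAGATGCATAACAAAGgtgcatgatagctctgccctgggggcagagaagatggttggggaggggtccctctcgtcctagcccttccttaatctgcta
Exon 1 element, chr17:35506203-35506403: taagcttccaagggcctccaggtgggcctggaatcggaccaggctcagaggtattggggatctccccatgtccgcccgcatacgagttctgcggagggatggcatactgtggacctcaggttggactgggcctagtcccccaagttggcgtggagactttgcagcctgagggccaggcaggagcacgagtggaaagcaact
Tcf19 intron element, chr17:35514205-35514405: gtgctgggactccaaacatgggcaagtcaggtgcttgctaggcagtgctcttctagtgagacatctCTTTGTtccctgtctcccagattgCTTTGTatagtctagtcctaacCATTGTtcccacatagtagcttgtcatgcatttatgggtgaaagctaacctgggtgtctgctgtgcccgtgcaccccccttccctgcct

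**Figure D1:**
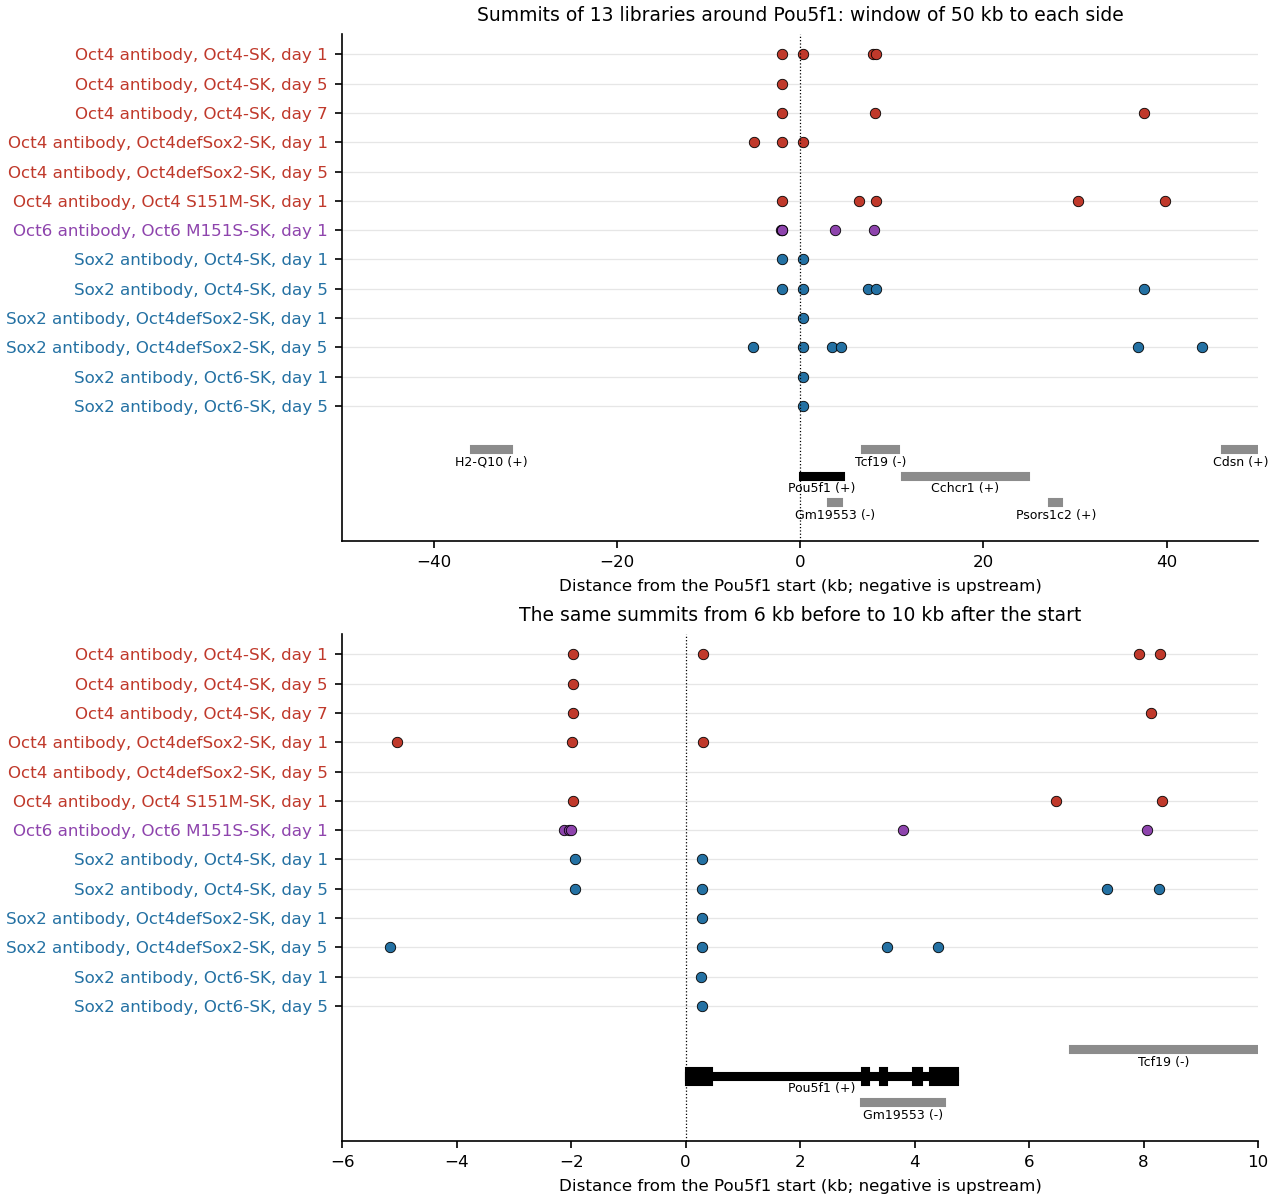
Summits of the 13 libraries (rows) by distance from the Pou5f1 start in kb, over 50 kb to each side (top) and from 6 kb before to 10 kb after it (bottom), with gene bodies and Pou5f1 exons below; each point is 1 summit and its colour is the antibody. Summits line up in an upstream column in 8 libraries and in an exon 1 column in 8 libraries.

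The recurrent upstream element lay between -2131 and -1934 bp, in intergenic sequence, and held 10 summits from 8 libraries. It was the only element in the 5 kb before the start. Over all coding genes, 0.15% had a summit in the 5 kb before their start in at least 8 of 13 libraries. Among the 1038 strongest summits of each library, the length of the smallest list, it was found in 3 libraries, those of the Oct4 antibody in Oct4-SK cells. In the full lists, with the Oct4 antibody it was found in 5 of 6 libraries, against 0.387% of coding genes that reached at least 5. With the Sox2 antibody it was found in 2 of 6, both from Oct4-SK cells, against 2.57% of coding genes that reached at least 2.

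In Oct4-SK cells the Oct4 summit was present on all 3 days. At day 1 it was at -1975 bp, with a score of 44.7 and rank 353 of 8216 (top 4.30% of its list). At day 5 it was at -1973 bp, with a score of 26.2 and rank 450 of 4854 (top 9.27%). At day 7 it was at -1963 bp, with a score of 155.1 and rank 4 of 3638 (top 0.11%). The element was thus among the strongest Oct4 sites at day 7, and further down the list at the earlier days. Read length differed at day 7, where it was shortest, and the part of read length in this order was not tested. Of all Oct4 day 1 summits, 9.65% had an Oct4 summit within 100 bp at both later days.

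Oct4defSox2 was found at the element at day 1, at -1979 bp, with a score of 48.5 and rank 1473 of 31070 (top 4.74%). Its position was 4 bp from that of Oct4 at the same day, and its place in the list was close to the top 4.30% of Oct4. At day 5 Oct4defSox2 had no summit there, nor anywhere within 50 kb of the start, in a list of 1038 summits. This combination was common, since 52.6% of all Oct4 day 1 summits had an Oct4defSox2 summit within 100 bp at day 1 and none at day 5. Only 0.397% of coding genes had an upstream summit in the Oct4defSox2 day 5 library, against 6.81% in that of day 1.

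Oct4 S151M, a serine-to-methionine point mutant of Oct4, had its summit at -1961 bp in a peak of 617 bp, with a fold enrichment of 9.38, a score of 147.6 and rank 6435 of 101170 (top 6.36%). An Oct4 S151M summit was within 100 bp of 78.2% of all Oct4 day 1 summits, so its presence at the element is the usual case. Oct6 M151S, which carries the reverse exchange, gave 3 summits within 1 called region of 375 bp, at -2131, -2032 and -2001 bp. Their scores were 2.45, 2.56 and 2.89, with a fold enrichment of 1.38, 1.39 and 1.43 and a q-value of 0.618, 0.498 and 0.41 in the deposited peak table. These summits were at the top 75.8% to 88.2% of their list and would not have passed the score of 4 used for the other libraries. Without this library the element was found in 7 libraries.

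Sox2 was found beside Oct4 at both days in Oct4-SK cells. At day 1 its summit was at -1934 bp, with a score of 7.34 and rank 8614 of 15222 (top 56.6%). At day 5 it was at -1939 bp, with a score of 13.6 and rank 1287 of 5832 (top 22.1%). In both lists it was weaker, relative to the other sites, than the Oct4 summit of the same day. The Oct4 and Sox2 summits were 41 bp apart at day 1 and 34 bp apart at day 5, close to the median of 42.0 bp over the 1628 Oct4 summits with a Sox2 summit within 100 bp at day 1 and of 40.0 bp over the 474 such summits at day 5. Such Sox2 neighbours were found at 19.8% of all Oct4 summits at day 1 and at 9.77% at day 5.

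In Oct4defSox2-SK and in Oct6-SK cells Sox2 had no summit in the 5 kb before the start at either day. The lists of these 4 libraries held 5794 and 21563 summits for Oct4defSox2-SK and 3242 and 2673 for Oct6-SK, at days 1 and 5. Of these, only the Oct4defSox2-SK list of day 5 was larger than that of Oct4-SK at the same day (5832), and 8.41% of coding genes had an upstream summit in it. The other 3 lists were shorter than those of Oct4-SK, and at day 1 the Sox2 summit of Oct4-SK cells, at rank 8614, lay beyond the length of both. Among the 1038 strongest summits of each library, Sox2 had no upstream summit in Oct4-SK cells either. Absence from both other cocktails was the rule rather than the exception for Sox2 in Oct4-SK cells, since 86.6% of its day 1 summits and 57.8% of its day 5 summits had no Sox2 summit within 100 bp in either of them at the same day.

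**Figure D2:**
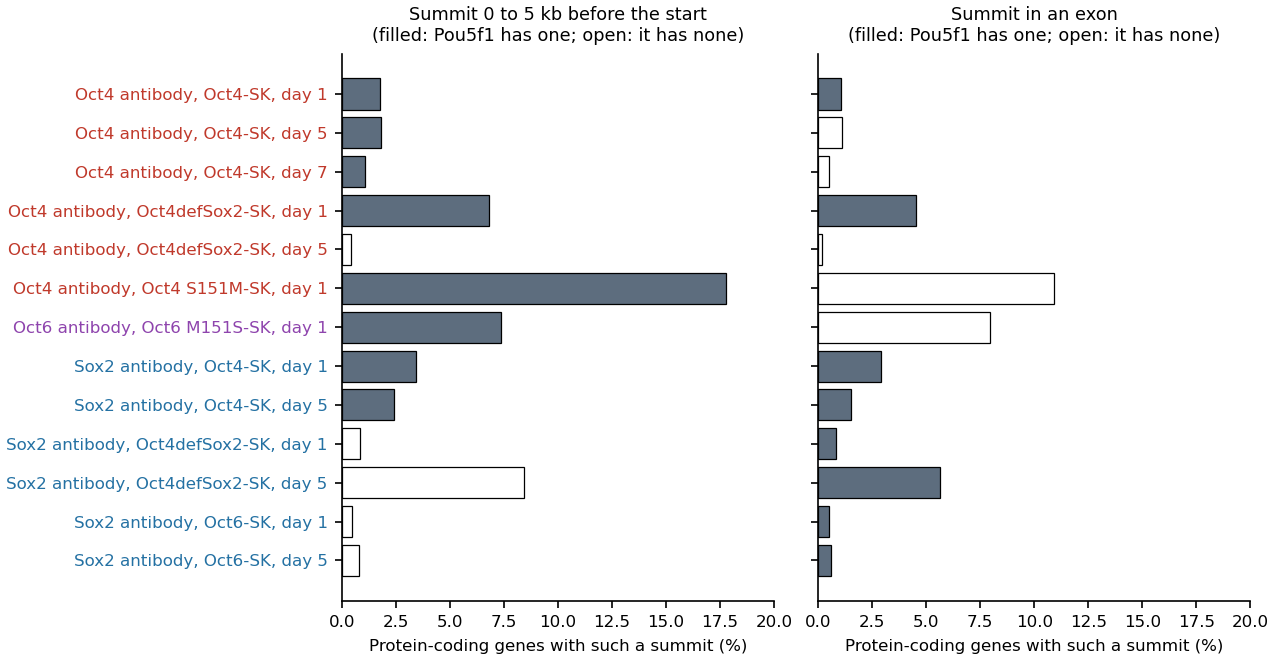
Percent of 21938 protein-coding genes with a summit in the 5 kb before their start (left) or in an exon (right) in each library, with bars filled where Pou5f1 has such a summit. For Sox2 in Oct4defSox2-SK cells at day 5 the upstream bar is open at 8.41%, and for Oct4 S151M the exon bar is open at 10.9%. Most genes thus lack such a summit in these libraries, as Pou5f1 does.

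The upstream element held 1 SoxOct match, on the minus strand at chr17:35504049-35504063 (-1969 to -1955 bp). SoxOct was searched as a consensus of 15 bases with at most 2 mismatches. Read on its own strand, the match was CTTTGTTATGCATCT, which differs from the consensus by A13T and A14C, with positions counted from 1 at its 5′ end and the consensus base given first. Both differences lie in the octamer-like site. On the plus strand the octamer-like site lies farther from the gene and the Sox site nearer to it.

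At this element the Oct4-antibody summits lay farther from the gene than the Sox2-antibody summits, the same order as that of the paired sites. Whether summits follow this order at other SoxOct matches was not tested. From the centre of the match, the 5 Oct4-antibody summits were at -17, -13, -11, -1 and 1 bp, inside the match or on its octamer side. The 2 Sox2-antibody summits were at 23 and 28 bp, past its Sox side. The 3 Oct6 M151S summits were at -169, -70 and -39 bp, all farther from the match than any Oct4-antibody summit. Within 100 bp, 9 of 10 upstream summits had the match, the exception being the outermost Oct6 M151S summit.

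**Figure D3:**
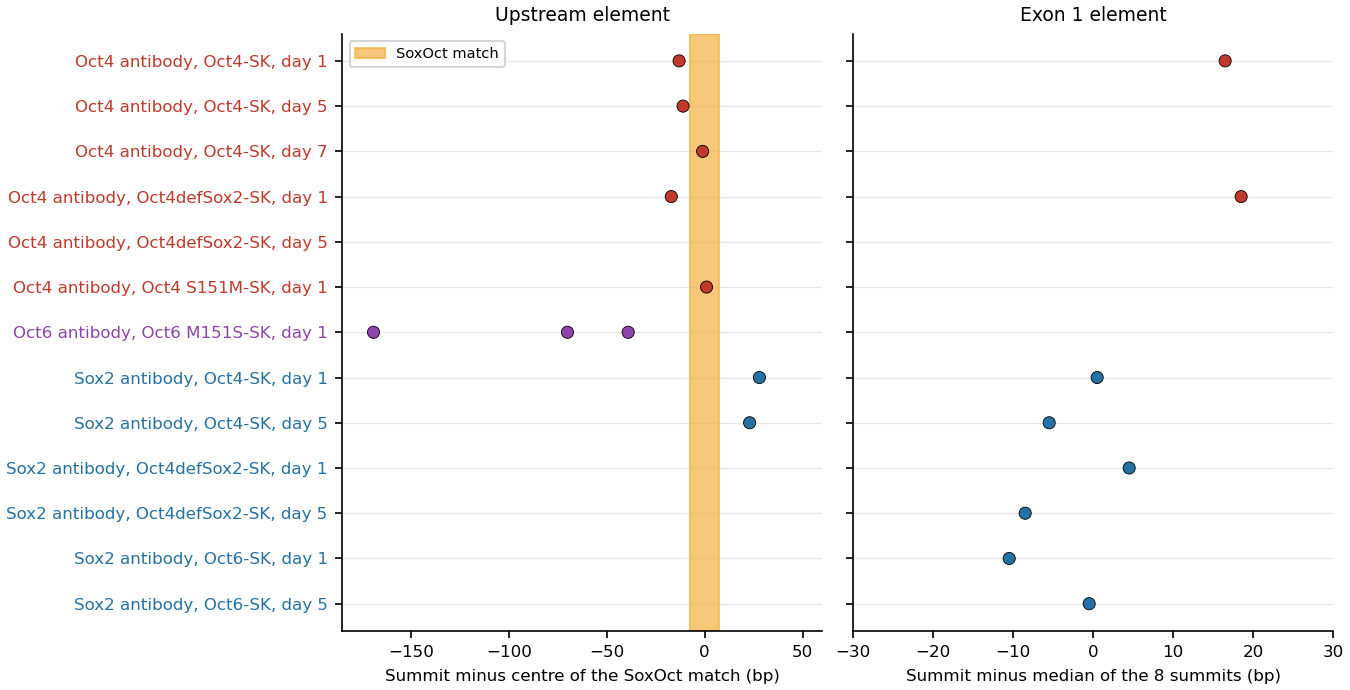
Position of each summit in bp from the centre of the SoxOct match in the upstream element (left, match shaded) and from the median of the 8 summits in exon 1 (right), by library and coloured by antibody. Oct4-antibody summits lie from -17 to 1 bp of the match centre and Sox2-antibody summits at 23 and 28 bp.

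A SoxOct match was present in 5.99% of the 201 bp windows around all summits of the 13 libraries, in 15.1% of those of Oct4 at day 1, 19.6% at day 5 and 31.9% at day 7, and in 1.15% of all RefSeq promoters of 300 bp. Over the 50 kb to each side of the start there were 5 SoxOct matches, and 2 of them were within 100 bp of a summit. This held for 3 of 38 KLF matches, 16 of 206 Sox cores and 0 of 2 octamers. The upstream windows held no exact octamer ATGCAAAT, found in 5.72% of all summit windows and 1.74% of promoters, and no MORE or MORE+1 palindrome (at most 1 mismatch), found in 9.58% and 3.67% of summit windows and in 0.423% and 0.18% of promoters. A Sox core ACAANG was in all 10 upstream windows, a motif present in 50.1% of all summit windows and 41.2% of promoters. The upstream element also held 1 KLF match GGGNGNGGC, at -2010 to -2002 bp, a motif present in 3.99% of summit windows and 25.8% of promoters. The 10 upstream windows overlap on this element, so the KLF and SoxOct matches are each 1 site seen repeatedly, the Sox cores are a few sites shared among windows, and such counts are not to be read against the shares of all windows. Both strands were searched, the single Sox core of the printed upstream window lies inside its SoxOct match, and a match is a description of the sequence rather than of binding. The GC content of the upstream windows was 50.2% to 61.2%, higher than the median of 39.3% over all summits.

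No library had a summit between -1934 and +275 bp, a stretch that contains the proximal enhancer and the promoter. The Pou5f1 promoter window in RefSeq (chr17:35505782-35506081, GRCm38.p6) held 1 KLF match and none of the other 5 motifs.

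The other column of summits was in exon 1 (chr17:35506018-35506483). It held 8 summits from 8 libraries within 29 bp of each other, from +275 to +304 bp, in the coding part of the exon. An exon summit in at least 8 libraries was found for 0.1% of coding genes. All 6 Sox2-antibody libraries had it, as for 0.0456% of coding genes, and so did the Oct4 library and the Oct4defSox2 library of day 1. None was found for Oct4 at days 5 and 7, Oct4defSox2 at day 5, Oct4 S151M or Oct6 M151S. In these libraries 1.09%, 0.506%, 0.169%, 10.9% and 7.95% of coding genes had an exon summit, in this order, so its absence is the usual case.

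For the Sox2 antibody the exon 1 summit was among the strongest of each list. In Oct6-SK cells at day 1 it was at +275 bp with a score of 71.5, and it ranked 1 of 3242. At day 5 in these cells it was at +285 bp with a score of 33.0, and it ranked 30 of 2673 (top 1.12%). Oct6-SK cells carry no retroviral Oct4 cDNA by their labels.

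In Oct4defSox2-SK cells it was at +290 bp at day 1 with a score of 32.6 and rank 34 of 5794 (top 0.587%). At day 5 it was at +277 bp with a score of 280.6 and rank 2 of 21563. In Oct4-SK cells it was at +286 bp at day 1 with a score of 28.0 and rank 223 of 15222 (top 1.46%), and at +280 bp at day 5 with a score of 102.0 and rank 3 of 5832. In these 2 cocktails the summit stood higher in its list at day 5 than at day 1, and in Oct6-SK cells it stood higher at day 1. With 1 library each, these orders have no replicate check.

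For the Oct4 antibody the exon 1 summit was weaker. In Oct4-SK cells at day 1 it was at +302 bp with a score of 17.4 and rank 2069 of 8216 (top 25.2%). In Oct4defSox2-SK cells at day 1 it was at +304 bp with a score of 9.86 and rank 18415 of 31070 (top 59.3%). Both were on the 3′ side of all 6 Sox2-antibody summits. In both libraries the upstream element stood above exon 1, whereas in both Sox2 libraries of Oct4-SK cells exon 1 stood above the upstream element.

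**Figure D4:**
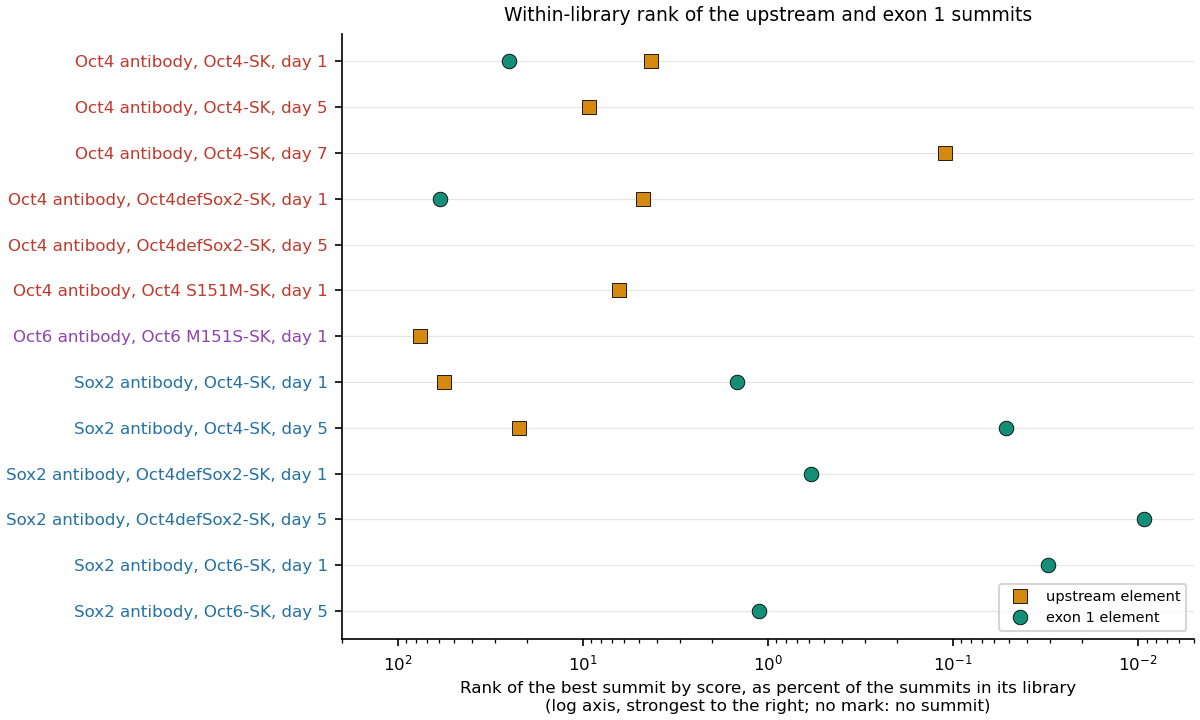
Rank of the best upstream summit (squares) and exon 1 summit (circles) as a percent of all summits in the same library, on a log axis with the strongest to the right. All 6 Sox2-antibody libraries place exon 1 in their top 1.46%, and Oct4 at day 7 places the upstream element in its top 0.11%.

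The exon 1 windows held none of the 6 motifs, the Sox core included, in any of the 8 libraries. Their GC content was 60.7% to 62.2%. Of all Sox2 summits in Oct6-SK cells at day 1, 2.41% had a Sox2 summit within 100 bp in each of the 5 other Sox2 libraries, and exon 1 of Pou5f1, first by rank in that list, was one of them.

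A further 2 exon summits and 1 intron summit lay in the gene body. Sox2 in Oct4defSox2-SK cells at day 5 had a summit at +3510 bp in exon 3 (score 5.42, top 81.3%) and one at +4404 bp in exon 5 (score 35.4, rank 903 of 21563, top 4.19%). Both positions also lie in Gm19553, an antisense transcript. Oct6 M151S had a summit at +3805 bp in an intron, with a score of 2.47, a fold enrichment of 1.36 and a q-value of 0.601. In all, 10 of 11 gene-body summits were in exons, a share of 90.9% (Wilson 95% interval 62.3% to 98.4%, counting error only). The summits of different libraries at 1 element are not independent, and the interval does not cover this. Over all coding genes, 8.37% of the summits inside them were in an exon.

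By cocktail, 6 of 10 libraries of cells with an Oct4-type cDNA and 2 of 3 libraries of cells with an Oct6-type cDNA had a Pou5f1 exon summit. An exon summit in at least that many of the same libraries was found for 0.182% and 0.365% of coding genes, respectively. By antibody, it was found in 6 of 6 Sox2, 2 of 6 Oct4 and 0 of 1 Oct6 libraries. Neither division was tested. The source of the exon reads was not tested. The other genes whose cDNA the retroviruses carry were looked at in the same way. Sox2 had an exon summit in 9 libraries, including all 6 with the Sox2 antibody, both day 1 libraries in which Pou5f1 had one with the Oct4 antibody, and Oct6 M151S (score 14.4, rank 30 of 22804). Pou3f1 had one in 8 libraries, again including all 6 with the Sox2 antibody and so also Oct4-SK and Oct4defSox2-SK cells, which carry no retroviral Oct6 cDNA by their labels. In those 4 libraries the best Pou3f1 exon summit was in the top 1.96% to 18.0% of its list. In Oct6-SK cells it ranked 2 of 3242 at day 1 (top 0.0617%) and 96 of 2673 at day 5 (top 3.59%), the latter within that range. In Oct6 M151S the Pou3f1 exon summit was the strongest of 22804, with a score of 344.4, whereas Pou5f1 had no exon summit there. Klf4, which all cocktails carry, had an exon summit in 4 libraries and in only 1 of 6 with the Sox2 antibody. In Oct6 M151S the Klf4 exon summit had a score of 13.3 and ranked 46 of 22804. For Oct4 at day 1 it was in the top 7.08% of its list, and for Oct4defSox2 at day 1 in the top 92.8%. For Sox2 in Oct4defSox2-SK cells at day 5 it was in the top 45.2%.

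**Figure D5:**
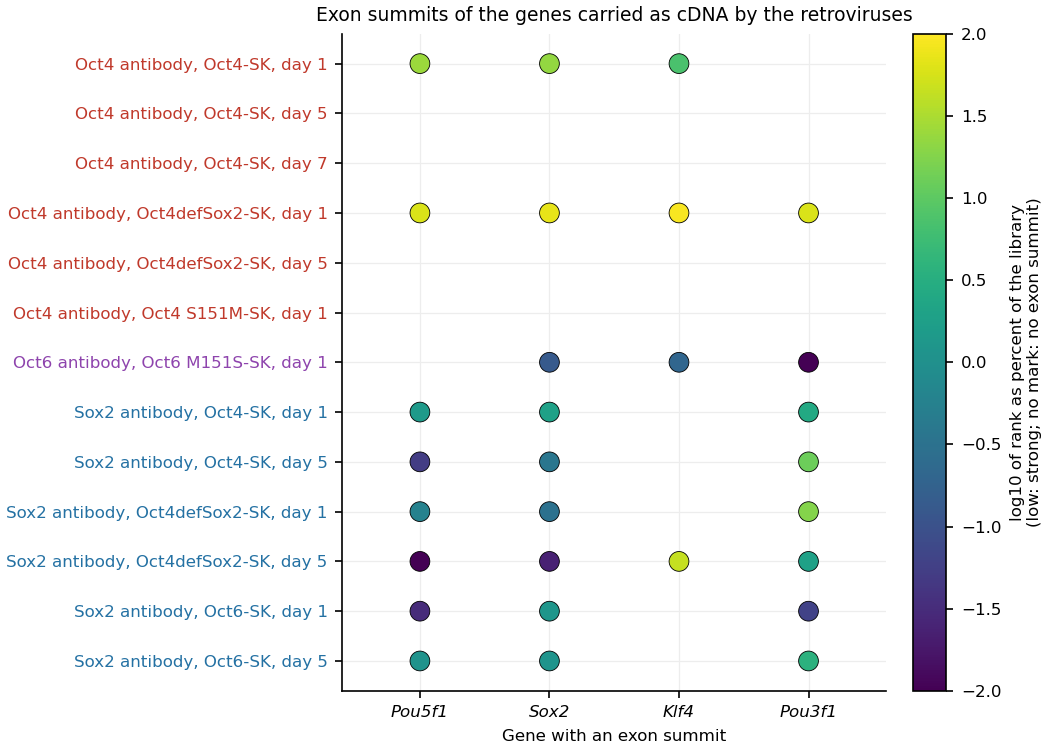
Exon summits of Pou5f1, Sox2, Klf4 and Pou3f1 in the 13 libraries (rows), coloured by the log10 of the best summit's rank as a percent of its list, with no mark where there was none. Pou5f1, Sox2 and Pou3f1 are marked in all 6 Sox2-antibody libraries and Klf4 in 1 of them.

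The coding genes with an exon summit in all 6 Sox2-antibody libraries numbered 10, and they are named here although this list was drawn up after its values were seen. Ordered by the mean rank of their best summit in these libraries, they were Pou5f1 (mean top 0.544%), Sox2 (0.846%), Sox17 (1.20%), Kank2 (2.25%), Pou3f1 (6.45%), Rbbp4 (11.0%), Rtkn2 (13.6%), Ptch1 (14.2%), Csrp3 (18.2%) and Rhob (26.9%). Pou5f1 thus had the strongest exon summit of the 10 on this mean, though not in every library. In Oct4defSox2-SK cells at day 1 the best Sox2 exon summit ranked 18 and that of Pou5f1 34 of 5794. In the other Sox2-antibody libraries Pou5f1 stood above Sox2.

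The coding genes most like Pou5f1 in their pattern of presence and absence over the 13 libraries were found with the Jaccard index, the number of libraries with a summit in both genes divided by the number with one in either. For exon summits these were Sox2 (0.889, 8 of 9 libraries), Ptch1 and Rtkn2 (0.875, 7 of 8) and Csrp3 and Rhob (0.80, 8 of 10). For upstream summits they were Ttc39b (0.875, 7 of 8), which had a summit in the 5 kb before its start in each library in which Pou5f1 had one except Sox2 in Oct4-SK cells at day 1, then Pmpcb, Nnmt and Rnf13 (0.778, 7 of 9) and 5730480H06Rik (0.75, 6 of 8, an index shared by 12 genes). No other coding gene among 21937 matched either pattern in full. The upstream pattern counts Oct6 M151S as present for Pou5f1, although its summits there were below the score of 4 used for the other libraries. Ttc39b had an upstream summit in the Oct6 M151S library, whereas Pmpcb and 5730480H06Rik had none, so the order of these genes rests in part on that library.

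Downstream of Pou5f1, 4 elements with 7 summits lay in introns of Tcf19, a gene on the opposite strand. Of these, 2 were found in more than 1 library. The one at +8264 to +8316 bp had summits of 3 libraries. Oct4 S151M had a summit at +8316 bp in a peak of 566 bp, with a fold enrichment of 10.3, a score of 210.7 and rank 4046 of 101170 (top 4.00%). This was a higher place in its list than that of the upstream element (top 6.36%). Oct4 at day 1 had a summit at +8287 bp (score 16.4, top 27.0%) and Sox2 in Oct4-SK cells at day 5 one at +8264 bp (score 10.2, top 41.9%). The printed window of this element held 3 Sox cores and none of the other 5 motifs.

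The other, at +8067 to +8132 bp, joined a weak Oct6 M151S summit (score 3.78, q-value 0.171) and Oct4 at day 7 (score 7.53, top 69.7%). Oct4 at day 1 also had a summit at +7917 bp (score 5.30, top 92.2%). Sox2 in Oct4-SK cells at day 5 had one at +7352 bp, with a score of 22.7 and rank 379 of 5832 (top 6.50%), which was higher in that list than its upstream summit (top 22.1%).

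The last recurrent element was intergenic, between Psors1c2 and Cdsn. Sox2 in Oct4-SK cells at day 5 was at +37492 bp (score 9.63, top 42.8%) and Oct4 at day 7 at +37493 bp (score 11.8, top 35.8%), 1 bp apart. It held the other SoxOct match near a summit, on the minus strand at chr17:35543525-35543539. This match was TATTGTTATGTAAAT, which differs from the consensus by C1T and C11T.

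The remaining elements were each found in 1 library. Oct4 S151M alone was found at +6470, +30368 and +39849 bp, with scores of 32.2, 22.6 and 110.5. Sox2 in Oct4defSox2-SK cells at day 5 alone was found at -5170, +36831 and +43859 bp, with scores of 5.35, 8.62 and 8.62. Oct4defSox2 at day 1 alone was found at -5038 bp with a score of 5.96, just outside the 5 kb that defined the upstream class. The summits at -5170 and -5038 bp were low in their lists (top 81.3% and 90.2%), and no library had a summit from there to the upstream end of the window.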

How the data were processed

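The 13 libraries are precipitations of crosslinked chromatin from 9 combinations of cocktail and day, sequenced in pairs of reads. The authors aligned reads to mm10 with Bowtie2 2.2.5, kept well-mapped, unique reads with SAMtools, and called peaks with MACS2. The deposited summit lists hold a position and a score, the -log10 of the peak caller's p-value. Deposited peak tables of the 2 single-residue mutants add the fold enrichment and the -log10 of the q-value. Whether the 3 inputs served as control is not given in the sources used here. The files used here give no read depth.

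Summits were read in Python 3.11.15 with pandas 2.3.3, ranked within each library, joined within 100 bp and placed on GENCODE M21 genes. Windows of 201 bp from GRCm38 were read with pysam 0.24.0. Scripts were tested on simulated data. No library had a replicate. Members, gene lists and rules were chosen with earlier results of these data known. Elements named were those in the gene body or the 5 kb before the start, those in 2 or more libraries, and, added afterwards, all others. Genes named were those with a retroviral cDNA, the 5 closest in each presence pattern, and, added afterwards, those with exon summits in all Sox2 libraries.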

Additional observations from a re-analysis of the deposited data

How the results depend on the processing

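Of 36 planned recalculations, 25 stayed within 1.5 times the reported count or within its interval. Keeping only scores of at least 10 left 22 summits, 9 elements and 3 elements in at least 2 libraries, against 37, 17 and 5. Keeping only the 1038 strongest summits of each library, the size of the smallest list, left 11 summits, 4 elements, 2 elements in at least 2 libraries and 3 libraries with an upstream summit, namely Oct4-SK with the Oct4 antibody at days 1, 5 and 7, against 8. The exon share of gene-body summits became 100% with scores of at least 10, with the strongest summits only, and with Oct6 M151S held to a score of at least 4, because its intron summit dropped out. With 1 mismatch fewer allowed, 0 upstream summits had a SoxOct match within 100 bp, against 9. The number of libraries with exon summits stayed within 1.5 times in each recalculation. No paired analysis was possible because the counts come from no test and each group is 1 library; days within a cocktail are conditions, not replicates. Read depth, which the files used here do not give, and unequal list lengths limit what the absence of a summit shows.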
